A study of Mus musculus with 6 samples.

Results

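A set of 9 genes of the membrane discs of the rod outer segment was followed in flow-sorted mouse rods on postnatal day 10. They are Prph2, Rom1, Prom1, Cdhr1, Pcare, Fscn2, Tulp1, Rp1 and Rp1l1 and were chosen by symbol from the 52143 genes in the deposited tables. Plasmids were electroporated in vivo into newborn retinas on postnatal day 0. The control group received pLKO.1-Scrambled, and the Jun_KD group received 1 shRNA clone against Jun, each with an Nrlp-EGFP vector that marks rods by the Nrl promoter. Each group had 3 libraries, and the labels do not say which animals, litters or pools a library came from, and the p-values therefore reflect only library-to-library spread, part of which may be technical.

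The rod outer segment is a modified cilium filled with stacked membrane discs. New discs form at its base as outgrowths of the ciliary membrane, and their edges are bent and sealed by a tetraspanin complex as each disc matures. Mutations in genes of this apparatus are known causes of retinal degeneration.

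Depth and group moved together: control libraries held 32150100 to 105801000 estimated counts and Jun_KD libraries 13211300 to 13998400. Jun itself stood at 6.47, 5.85 and 7.16 CPM in controls and 1.84, 17.6 and 19.3 CPM in Jun_KD, below every control in Jun_KD replicate 1 and above every control in replicates 2 and 3. Its log2 fold change of 0.99 (SE 1.44) did not pass (edgeR adjusted p = 0.764), so every comparison below is between libraries by label. CPM here means counts per 1000000 after TMM scaling in edgeR. The 7 rod markers, among them Sag and Gnat1, were present in all libraries but summed to 47954 to 62537 CPM in controls and 5899.5 to 8413 CPM in Jun_KD. Sag alone stood at 35419, 41510 and 36490 CPM in controls and 4864, 3693 and 4440 CPM in Jun_KD, so it weighs heavily in these sums. Of these 7, 4 were called lower, against 1.35% of all genes tested. Their log2 fold changes were negative for 6 and positive for 1, Cnga1 (0.21). Nrl (adjusted p = 0.138) and Pde6a (0.283) were lower but did not pass (edgeR). Sums of the 8 microglia markers were 652.6 to 959.6 CPM in controls and 1.75 to 5.04 CPM in Jun_KD, those of the 8 Müller glia markers 1803 to 2159.96 and 268 to 369.6 CPM, and those of the 8 bipolar markers 647 to 827 and 918 to 1410.5 CPM. The bipolar markers were mixed, with 4 negative and 4 positive log2 fold changes. Among them Sebox was called lower (-8.02, adjusted p = 0.0124) and Prkca higher (3.76, adjusted p = 0.0468, edgeR). Cone markers summed to 2859 to 4782 and 2330.7 to 3014 CPM, vascular and blood markers to 171 to 320.4 and 38.0 to 94.0 CPM with Hba-a1 at 0 in every Jun_KD library, and pigment epithelium markers to 209 to 215 and 0.226 to 0.885 CPM. Krt18 alone stood at 206, 124 and 143 CPM in controls, so it weighs heavily in the pigment epithelium sums. Rgr and Ttr reached 71.3 and 19.9 CPM in controls, whereas Rpe65, Lrat and Mitf were at or below 0.252 CPM in every library of both groups. Positive log2 fold changes were seen for 2 of 7 tested cone, 2 of 8 Müller glia and 2 of 6 vascular and blood markers. The other tested markers of these 3 lists were negative. Amacrine and ganglion cell markers (11.6 to 80.5 and 14.6 to 63.3 CPM) and progenitor markers (1.94 to 19.3 and 2.38 to 5.36 CPM) overlapped. Retained-intron models took 2.71% to 3.46% of all transcript counts in controls and 7.38% to 8.92% in Jun_KD. The part of these differences in the results below was not tested. In such bulk libraries, fewer cells of a type and less RNA per cell cannot be told apart.

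Of the 9 genes, all of which passed the low-count filter, 2 fell and 0 rose at an adjusted p under 0.05 (edgeR quasi-likelihood test). Over all 12815 tested genes 1.67% were called, 1.35% lower and 0.320% higher. At an unadjusted p under 0.05, 3 of the 9 were lower and 0 higher, against 10.7% and 6.13% of all genes tested. DESeq2 called 2 lower and 0 higher, in a fit that called 2023 of 15332 genes in either direction. With limma-voom, 1 was called lower and 0 higher, in a fit that called 442 of 12815 genes. The median log2 fold change was -1.42 over the 9 and -0.12 over all genes tested. In gene CPM, groups did not overlap for 4 of the 9 in the lower direction and 1 in the higher direction, against 15.7% and 12.6% of all genes tested.

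**Figure D1:**
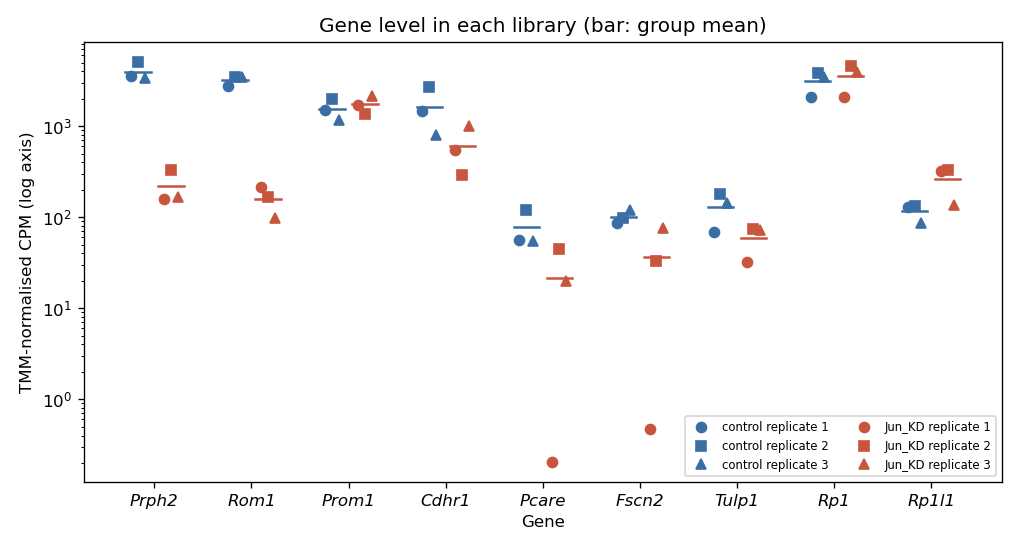
TMM-normalised CPM (log axis) of the 9 genes in each of the 6 libraries, blue for control and red for Jun_KD, with symbols for replicates and a bar at each group mean. Prph2 and Rom1 separate widely, Prom1 and Rp1 overlap, and Pcare and Fscn2 each have 1 very low Jun_KD library.

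Prph2 and Rom1, the paralogous tetraspanins of the disc rim, were the 2 that fell. Prph2 encodes peripherin 2 (ENSMUSG00000023978, chromosome 17, 46910459 to 46924933, plus strand) and stood at 3540.2, 5031 and 3369 CPM in control replicates 1, 2 and 3. It stood at 158, 331 and 168 CPM in the Jun_KD libraries. The lowest control was thus far above the highest Jun_KD library, and the mean went from 3979.9 ± 914 to 219 ± 97.1 CPM (SD, n = 3 each). edgeR gave a log2 fold change of -4.18 with an SE of 0.38 and an adjusted p of 0.00244, which is 18.2-fold lower. Rom1 encodes the partner tetraspanin (ENSMUSG00000071648, chromosome 19, 8927382 to 8929356, minus strand) and stood at 2734, 3489.7 and 3439.95 CPM in controls. Its Jun_KD values were 213, 165 and 98.3 CPM, again without overlap. Its log2 fold change of -4.34 (SE 0.36) had an adjusted p of 0.00153 with edgeR and is 20.3-fold lower. Both were lower in 3 of 3 libraries, but with limma-voom the call of Prph2 ended (adjusted p = 0.0950), while that of Rom1 held (0.0188).

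The balance between the 2 rim genes did not differ beyond its spread. Within a library, the log2 ratio of Rom1 to Prph2 counts was -0.37, -0.53 and 0.030 in controls and 0.43, -1.0 and -0.77 in Jun_KD. The group means differed by -0.16 (exact permutation p = 0.8, two-sided, smallest possible 0.1). Jun_KD replicate 1 held relatively more Rom1 and replicates 2 and 3 relatively more Prph2, so the ratio was more scattered there (SD 0.77) than in controls (SD 0.29).

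At the transcript level the same genes supplied both calls. Of 47 annotated transcript models of the 9 genes 45 had counts and 27 could be tested. Among these 27, 2 fell and 0 rose, where 0.604% and 0.0580% of 20706 tested transcripts did (0.662% in either direction), and 7 were lower and 1 higher at an unadjusted p under 0.05 (edgeR), against 10.8% and 4.79% of tested transcripts. The models were Prph2-201, with a log2 fold change of -4.17 (SE 0.37, adjusted p = 0.00649, edgeR), and Rom1-201, with -4.52 (SE 0.35, adjusted p = 0.00428). Rom1 has no other model. The second Prph2 model, Prph2-202, retains an intron and took 14.0%, 10.7% and 6.70% of Prph2 transcript counts in controls. In Jun_KD it took 1.00%, 6.32% and 0.0841%, below every control library. Its own change, -5.91 (SE 1.65), did not pass (adjusted p = 0.109, edgeR).

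Start-site sequences are shown for the rim genes because these moved together, and for Pcare because its window holds matches to both rod motifs searched. The sequences come from RefSeq windows (GRCm38.p6) of 250 bases before to 50 after a start site, found for 7 of the 9 genes in 8 windows. Both strands were searched for TAATC, the core of sites bound by the photoreceptor homeodomain factor Crx, its longer form TAATCC, and TGCTGA, a partial site of the rod factor Nrl. Also searched were TGANTCA, a loose form of the AP-1 site with any middle base, and the related site TGACGTCA. Every TAATCC is also a TAATC, and the other motifs do not contain one another. Capitals mark matches to TAATC and TGCTGA in either orientation. The printed stretches are chr17:46910328-46910458 (plus strand) for Prph2, chr19:8929357-8929506 (minus strand) for Rom1 and chr17:71752906-71753055 (minus strand) for Pcare.
Prph2: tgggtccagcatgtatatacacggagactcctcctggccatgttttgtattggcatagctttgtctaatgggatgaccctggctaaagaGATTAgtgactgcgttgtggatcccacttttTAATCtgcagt
Rom1: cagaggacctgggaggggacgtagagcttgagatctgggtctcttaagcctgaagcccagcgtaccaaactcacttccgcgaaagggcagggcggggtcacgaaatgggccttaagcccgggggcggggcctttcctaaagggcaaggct
Pcare: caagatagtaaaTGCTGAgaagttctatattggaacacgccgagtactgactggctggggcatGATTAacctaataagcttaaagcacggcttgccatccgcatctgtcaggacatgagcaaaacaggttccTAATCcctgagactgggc

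Prph2 has TAATC matches at -61 and -30 from its start site, and a further one at 33. The Rom1 window holds none of the 5 motifs. In Pcare the longer form TAATCC lies at -18 and TGCTGA at -138. The loose pattern TGANTCA occurs in both Prom1 windows, as TGACTCA at -88 from the start site at 44101736 and as TGAATCA at -189 from that at 44094768. Of all 32851 windows of this length, 22.0% hold TAATC, 7.06% TAATCC, 19.5% TGCTGA, 7.81% TGANTCA and 1.79% TGACGTCA. A match describes letters in the window only.

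Among the proteins of disc outgrowth, none passed at the gene level. Prom1 encodes prominin 1, a membrane protein of nascent disc edges (ENSMUSG00000029086, chromosome 5, 43993620 to 44102032, minus strand). It stood at 1497, 2006 and 1183 CPM in controls and 1692, 1361 and 2162 CPM in Jun_KD. The groups overlapped and the log2 fold change of 0.15 (SE 0.29) did not pass (adjusted p = 0.823, edgeR).

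Behind this gene value, the counts lay on different transcript models in the 2 groups. Models annotated as coding with both ends known, 10 of its 19, took 87.5%, 96.6% and 86.6% of Prom1 transcript counts in controls. They took 24.1%, 36.9% and 26.8% in Jun_KD, a difference of -61.0 percentage points without overlap (exact permutation p = 0.1, the smallest possible, adjusted p = 0.167 over 10 shares). Prom1-211 accounted for most of the rest. This model has 5 exons at the 3' end of the gene (43993622 to 44004919), an incomplete 5' end and a length of 1089 bases. Its share was 9.67%, 1.91% and 12.3% in controls and 75.5%, 50.3% and 71.9% in Jun_KD. Its level changed by 2.06 on the log2 scale (SE 0.54), which did not pass (adjusted p = 0.0995, edgeR). The full-length models Prom1-206 and Prom1-208 changed by -3.34 (SE 1.18) and -4.62 (SE 1.67), and neither passed (adjusted p = 0.206 and 0.220).

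Summed over the coding models with both ends, Prom1 fell. On that scale control libraries held 1405, 2676 and 1260.3 CPM and Jun_KD libraries 275, 389 and 408 CPM, with no overlap. On the log2 scale this is -2.32 (SE 0.40, adjusted p = 0.0296, edgeR), in a fit where 1.35% of 9229 genes were called and 1.13% were called lower. This sum was chosen after the data were seen, and the call ended without any 1 of the 6 libraries (adjusted p 0.0561 to 0.107). Exons of Prom1 share 424 bases with Gm16401 on the opposite strand. Since no strand marking is stated, reads there cannot be assigned to either gene.

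Cdhr1 encodes a photoreceptor cadherin that ties new discs to the inner segment (ENSMUSG00000021803, chromosome 14, 37077857 to 37098347, minus strand). It has 1 model and stood at 1467, 2674 and 794 CPM in controls and 548, 291 and 1003 CPM in Jun_KD. Jun_KD replicate 3 lay above control replicate 3, so the groups overlapped. The log2 fold change of -1.42 (SE 0.54) did not pass (adjusted p = 0.233, edgeR). Without the low-count filter Cdhr1 passed as lower (adjusted p = 0.00301, edgeR), in a fit that called 737 of 33087 genes.

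Pcare encodes a ciliary regulator of actin at the base of the outer segment (ENSMUSG00000044375, chromosome 17, 71743555 to 71752894, minus strand). It stood at 55.9, 121 and 54.7 CPM in controls and 0.204, 44.4 and 19.8 CPM in Jun_KD. All 3 Jun_KD values were below every control, but Jun_KD replicate 1 rested on 3 counts, against 788 and 302 in replicates 2 and 3. The groups overlapped on the scale of coding models with both ends. There Jun_KD replicate 2 stood at 69.0 CPM and control replicates 1 and 3 at 60.1 and 64.7 CPM. The log2 fold change of -1.85 had an SE of 1.44 (adjusted p = 0.552, edgeR), and it ranged from -1.29 without Jun_KD replicate 1 to -2.97 without Jun_KD replicate 2. With limma-voom it was -3.81, which did not pass either (adjusted p = 0.240).

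Fscn2, a photoreceptor fascin that bundles actin filaments, followed a like course across libraries (ENSMUSG00000025380, chromosome 11, 120361534 to 120368168, plus strand). It stood at 85.7, 98.8 and 119 CPM in controls and 0.476, 33.3 and 75.4 CPM in Jun_KD. Jun_KD replicate 1 was again the low one, with 7 counts against 591 and 1152. The change was -1.47 on the log2 scale (SE 1.31, adjusted p = 0.602, edgeR), and it ranged from -0.93 without that library to -2.61 without Jun_KD replicate 3. It was -3.15 with limma-voom (adjusted p = 0.264). Jun_KD replicate 1 also had the fewest genes with counts, 17661, where the other libraries had 19459 to 23237.

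Tulp1 encodes a tubby-like protein needed for transport of outer segment proteins (ENSMUSG00000037446, chromosome 17, 28351515 to 28365222, minus strand). The gene stood at 69.0, 178 and 144 CPM in controls and 31.9, 74.6 and 72.8 CPM in Jun_KD. Control replicate 1 lay between the Jun_KD values, and the change of -1.13 (SE 0.73) did not pass (adjusted p = 0.469, edgeR). Its models differed more than the gene. The 6 retained-intron models of Tulp1 took 12.5%, 2.32% and 5.17% of its transcript counts in controls and 61.8%, 51.1% and 41.2% in Jun_KD. This difference of 44.7 percentage points showed no overlap (exact permutation p = 0.1, adjusted p = 0.167). The main coding model Tulp1-201 stood at 75.1, 248 and 159 CPM in controls and 7.01, 14.9 and 24.9 CPM in Jun_KD on the transcript scale. Every Jun_KD library was below every control, while the test did not pass (log2 fold change -3.37, SE 0.91, adjusted p = 0.102, edgeR).

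Rp1, a doublecortin-domain protein that binds the microtubules of the axoneme and aligns discs, was high in both groups (ENSMUSG00000025900, chromosome 1, 3999557 to 4409241, minus strand). It stood at 2105, 3825 and 3476 CPM in controls and 2103, 4634 and 3923 CPM in Jun_KD. The groups overlapped almost fully, with a log2 fold change of 0.18 (SE 0.33, adjusted p = 0.816, edgeR). The 4-exon model Rp1-201 carried 86.5%, 70.8% and 68.4% of Rp1 transcript counts in controls and 93.9%, 75.9% and 76.0% in Jun_KD and was the most counted model in every library. Per length the short coding model Rp1-202 took the larger share in 4 of 6 libraries, with 43.6%, 55.5% and 73.7% in controls and 27.4%, 64.1% and 65.8% in Jun_KD, again overlapping. Retained-intron counts stayed between 0.0229% and 0.998% of Rp1 in all 6 libraries. Over coding models with both ends Rp1 changed by 0.83 (SE 0.24), which did not pass (adjusted p = 0.121, edgeR). On that scale the groups did not overlap, with 2429, 3422 and 2419 CPM in controls and 4662, 5594 and 4402 CPM in Jun_KD.

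Rp1l1, a paralog of Rp1 that also binds the axoneme, was the 1 gene whose Jun_KD values all lay above the controls in gene CPM (ENSMUSG00000046049, chromosome 14, 63992506 to 64035025, plus strand). It stood at 129.8, 134 and 86.0 CPM in controls and 319, 332 and 138 CPM in Jun_KD. Control replicate 2 and Jun_KD replicate 3 nearly touched, and the change of 1.17 (SE 0.55) did not pass (adjusted p = 0.320, edgeR). From the summed counts of its transcript models the change was smaller, 0.30 (SE 0.61, adjusted p = 0.830, edgeR). The 2 models of the gene differed in the sign of their change. Rp1l1-201, the coding model, stood at 101, 115 and 67.9 CPM in controls and 48.2, 6.06 and 5.41 CPM in Jun_KD on the transcript scale. Rp1l1-202 is a noncoding model of 2 exons at the 3' part of the gene (64029873 to 64035025). It stood at 45.0, 49.8 and 26.2 CPM in controls and 134, 155 and 60.9 CPM in Jun_KD. Neither change passed (log2 -2.25, SE 1.17, adjusted p = 0.434, and 1.53, SE 0.79, adjusted p = 0.427, edgeR). As a share of Rp1l1 counts, the coding model went from 69.1%, 69.8% and 72.2% in controls to 26.5%, 3.76% and 8.16% in Jun_KD, a difference of -57.6 percentage points (exact permutation p = 0.1, adjusted p = 0.167).

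**Figure D2:**
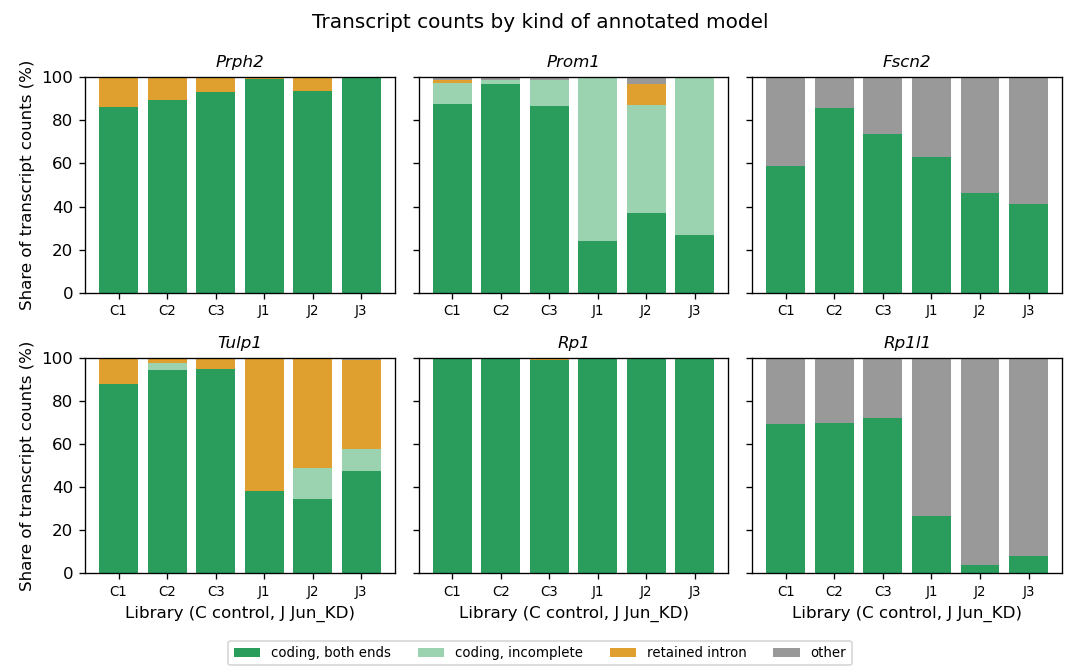
Share of each gene's transcript counts (%) by kind of annotated model in the 3 control (C) and 3 Jun_KD (J) libraries, for the 6 genes with more than 1 model. Dark green, coding models with both ends known, is 24.1% to 36.9% of Prom1, 34.2% to 47.2% of Tulp1 and 3.76% to 26.5% of Rp1l1 in Jun_KD, while Rp1 stays at or above 99.0% and Prph2 is at or above 86.0% in every library.

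A difference of the same sign was measured across the libraries as a whole. Coding models with both ends held 85.9% to 87.3% of all transcript counts in controls and 73.0% to 76.6% in Jun_KD. Among 3706 genes with 2 or more models and at least 50 counts in every library, 15.5% had a lower share of such models in Jun_KD without overlap and 4.70% a higher share. Of the 5 disc genes in that set, Prom1, Tulp1 and Rp1l1 were lower without overlap, Prph2 was higher without overlap, and Rp1 overlapped. The median gene differed by -1.43 percentage points, and 6.10% of genes were lower by at least 50 points, as Prom1, Tulp1 and Rp1l1 did. Fscn2 was outside that set because Jun_KD replicate 1 had too few counts. Its single coding model took 58.9%, 85.5% and 73.5% in controls and 62.8%, 46.2% and 41.3% in Jun_KD, which overlapped (exact permutation p = 0.2, adjusted p = 0.286).

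For Prom1, Rp1l1 and Tulp1 the deposited gene counts stood in a different ratio to the transcript sums in the 2 groups. The reason was not tested. For Prom1 the deposited gene count was 0.763 to 0.954 times the sum of its transcript counts in controls and 1.88 to 2.07 times in Jun_KD. The corresponding ratio for Rp1l1 was 0.967 to 1.02 in controls and 1.65 to 1.97 in Jun_KD, and for Tulp1 0.815 to 0.905 and 1.29 to 1.51. Rom1 and Cdhr1, with 1 model each, had ratios of 0.921 to 1.01 and 0.935 to 0.991 over all libraries. Rp1 had the widest values, 0.886 to 1.66 in controls and 0.627 to 1.27 in Jun_KD, which overlapped. From coding models with both ends, 3 of the 9 fell (Prph2, Rom1 and Prom1) and 0 rose, where 1.13% of 9229 genes were called lower. Of these, the Prom1 call ended when any 1 library was left out. At an unadjusted p under 0.05, 4 were lower and 1 higher (edgeR), against 10.6% and 5.53% of the genes in that fit. On that scale 8 of 9 log2 fold changes were negative, and the median over all genes in the fit was -0.195. From deposited gene counts 6 of 9 were negative, where 6679 of 12815 tested genes were. Rp1l1 turned from 1.17 to -1.57 (SE 1.19) and Tulp1 went from -1.13 to -2.67 (SE 0.93), neither past the threshold (adjusted p = 0.557 and 0.180, edgeR).

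**Figure D3:**
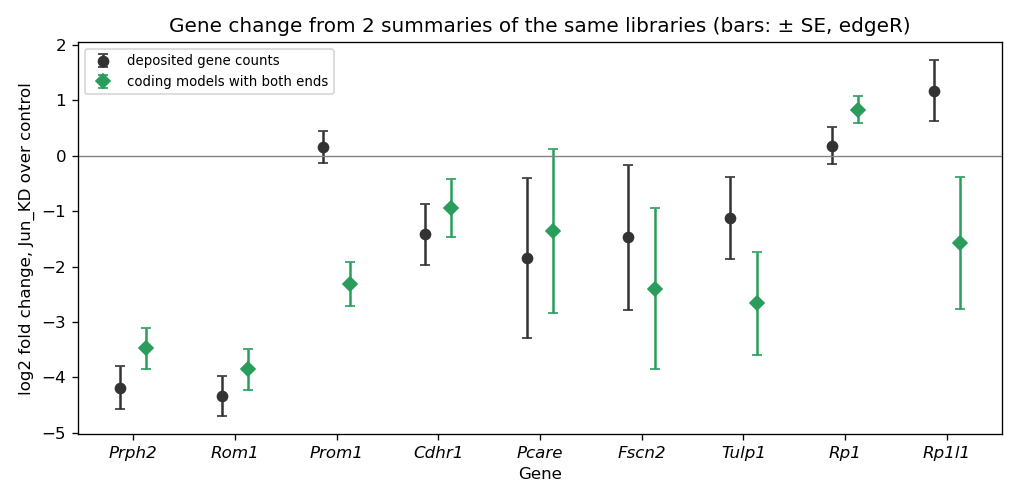
log2 fold change (Jun_KD over control, ± SE, edgeR, 3 libraries per group) of each gene from deposited gene counts (black circles) and from summed coding models with both ends (green diamonds). Prph2 and Rom1 lie below -3 on both, whereas Prom1 moves from 0.15 to -2.32 and Rp1l1 from 1.17 to -1.57.

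Levels of the 9 genes were set side by side per transcript length, as TPM (transcripts per 1000000, after division by length) computed from the transcript table. In controls the order of mean levels was Rom1, Prph2, Rp1, Prom1, Cdhr1, Fscn2, Tulp1, Rp1l1 and Pcare. Rom1 stood at 2615 ± 493 TPM and Prph2 at 2161 ± 682 TPM, which overlapped (SD, n = 3). Rp1 at 1020.2 ± 344 TPM and Prom1 at 755 ± 283 TPM also overlapped, as did Cdhr1 at 489.6 ± 320.1 TPM. Below these came Fscn2 at 122 ± 32.0 TPM and Tulp1 at 99.5 ± 49.8 TPM, which overlapped, then Rp1l1 at 40.0 ± 11.2 TPM and Pcare at 19.8 ± 11.4 TPM, which overlapped too.

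In Jun_KD the order was different, with the axonemal gene Rp1 first at 1578 ± 701 TPM and Prom1 next at 959 ± 108 TPM, overlapping each other. Cdhr1 followed at 216 ± 106 TPM, Rom1 at 171 ± 67.4 TPM, Prph2 at 161 ± 95.9 TPM and Rp1l1 at 115 ± 57.6 TPM, and these 4 overlapped. Fscn2 and Tulp1 stood at 53.4 ± 49.7 and 53.2 ± 24.8 TPM, overlapping each other and Rp1l1. Pcare was last at 7.43 ± 8.41 TPM, and its range overlapped that of Fscn2. In TPM the 2 groups overlapped for Fscn2, with Jun_KD replicate 3 at 99.3 TPM and control replicate 1 at 85.1 TPM. They also overlapped for Pcare, with Jun_KD replicate 2 at 16.6 TPM and control replicate 1 at 13.6 TPM. Counting only coding models with both ends, Prom1 stood at 102 ± 24.4 TPM, below the mean of Prph2 at 150.2 ± 78.5 TPM, and Rp1l1 at 4.59 ± 5.51 TPM, the lowest mean. As a percentage of the control mean, those models stood at 6.55% for Rom1, 8.52% for Prph2, 14.4% for Tulp1, 17.2% for Fscn2, 18.0% for Prom1, 30.4% for Rp1l1, 37.6% for Pcare, 44.2% for Cdhr1 and 154% for Rp1. TPM is a share of each library, so these percentages are relative to the other RNA in it.

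Around the disc genes, 29 genes of the outer segment membrane, connecting cilium, transport and branched actin were listed, of which 28 were tested. In that list 1 fell and 1 rose, against 1.35% and 0.320% of all genes tested. At an unadjusted p under 0.05, 4 were lower and 4 higher, against 10.7% and 6.13%. The list had a median log2 fold change of -0.23 against -0.12 over all genes tested. Cngb1, whose product joins the plasma membrane channel to the disc rim, changed by -2.60 (SE 0.49, adjusted p = 0.0409, edgeR). Its call ended without any 1 of the 6 libraries (adjusted p 0.0566 to 0.161) and under each other scaling (adjusted p 0.0507 to 0.0688). Cnga1, the other channel subunit, changed by 0.21 (SE 0.30) and did not pass.

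Rpgrip1, a scaffold of the connecting cilium, rose by 1.76 (SE 0.28, adjusted p = 0.0199, edgeR). As with Prom1, its coding models with both ends gave another value, -2.50, which did not pass (adjusted p = 0.218). The call ended without control replicate 1, 2 or 3 or Jun_KD replicate 2 or 3 (adjusted p 0.0508 to 0.0898), with DESeq2 (adjusted p = 0.130) and over all coding transcripts (0.53, adjusted p = 0.679). Other low p-values in the list belonged to Unc119, a lipid-binding carrier (-1.93, SE 0.46), the cilium genes Cep290 (1.47, SE 0.39) and Rpgr (1.50, SE 0.49), and Pfn1, an actin monomer-binding profilin (-4.57, SE 1.36). None of these 4 passed (adjusted p 0.0694 to 0.172).

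**Figure D4:**
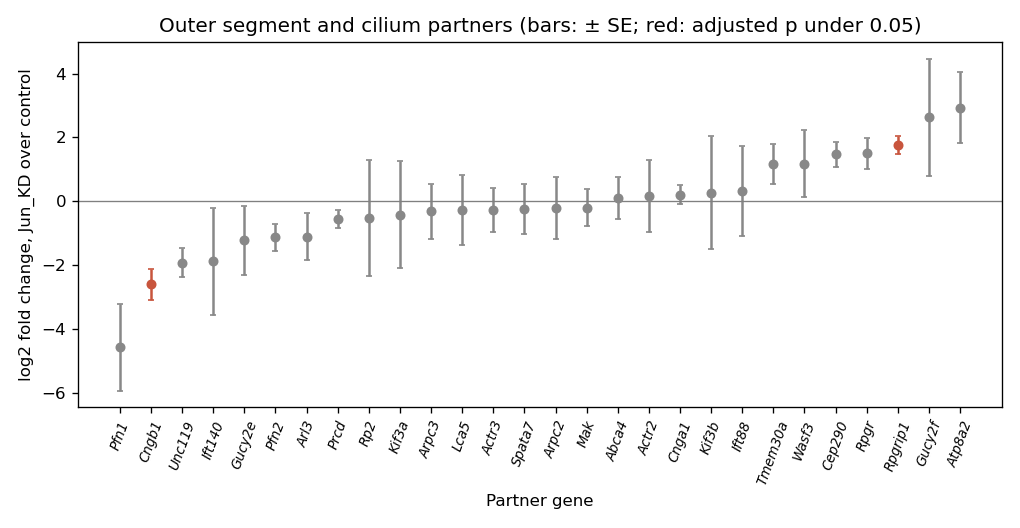
log2 fold change (Jun_KD over control, ± SE, edgeR on deposited gene counts) of the 28 tested partner genes, ordered by value, red where the adjusted p was under 0.05. The 2 red points are Cngb1 at -2.60 and Rpgrip1 at 1.76.

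Paralogs outside the 9 genes, 15 in the families of prominins, fascins, tubby-like proteins, doublecortins and cadherin-related proteins, gave 9 tested genes, of which 0 passed in either direction and 0 had an unadjusted p under 0.05 (edgeR). Those with the smallest p were Dclk2, a doublecortin-like kinase (-4.21, SE 2.68, adjusted p = 0.459), and Tub, the founding tubby protein, at 139 ± 37.5 CPM in controls and 246 ± 93.1 CPM in Jun_KD (0.83, SE 0.53, adjusted p = 0.459). Control replicate 2 held most of the Dclk2 signal (0.0274, 23.7 and 1.87 CPM in controls against 0, 0 and 1.37 CPM in Jun_KD). Without that library Dclk2 was -1.10, and without Jun_KD replicate 3, which leaves Jun_KD at 0, the fitted value was -11.3.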

How the data were processed

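RNA of 3 control and 3 Jun_KD libraries of sorted rods was made into full-length cDNA with SMART-seq v4 and into libraries with Nextera XT, per the labels' protocols, which state no strand marking. Per the submitters' processing notes, the tools were Trimmomatic 0.39, kallisto 0.44.0 and edgeR 3.28.1, with no role stated. For the build behind the counts, nothing is given in the sources used here. What the authors deposited were estimated counts per gene and per transcript, which are not whole and were rounded for count tests, and a normalised table. That table is named CPM, but its columns sum to 1250540 to 2385210, so the deposited values were treated as a signal, counts scaled by 1 factor per library. No sample column was left out (0 columns).

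After filterByExpr and TMM scaling, group was tested by the quasi-likelihood test of edgeR 4.0.16 (with R 4.3.3, limma 3.58.1 and DESeq2 1.42.0), using Benjamini-Hochberg adjustment over all 12815 genes or 20706 transcripts and a threshold of 0.05. SE is the absolute log2 fold change over the root of the F statistic. The functions were tested on simulated counts. Transcript names, lengths and ends come from GENCODE vM21 (GRCm38), which held 134456 of 136550 transcript identifiers, and TPM used these lengths. Gene counts are not sums of transcript counts: 6.62% of gene values with sums over 50 lay within 1% of the sum. Gene coordinates are the deposited ones, as GRCm38. Permutation tests were exact and two-sided. The 9 genes, the partner, paralog and marker lists and the naming rule (all 9 genes, partners past the threshold and the 4 next by p, 2 paralogs, the 2 most abundant transcripts of a gene and any past the threshold) were chosen with earlier results of these data known. Alternatives were other scalings, filters, tools, thinning, a block for the replicate number, and fits without each library. Prom1-211, Cnga1, the motifs and the printed sequences were chosen after their values were seen. A gene that the rod marker and partner lists first held is not reported here, and the lists are given without it.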

Additional observations from a re-analysis of the deposited data

How the results depend on the processing

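Rom1 kept its direction and call under all 20 alternatives (log2 fold change -4.63 to -3.84), and Prph2 kept its direction under all 20 (-4.60 to -3.48) and its call under 19. With limma-voom the number of the 9 genes called lower went from 2 to 1. Without a low-count filter the number of their transcripts called lower went from 2 to 6. The share of all transcripts called in that fit is not given. Without that background, the rise to 6 cannot be read as particular to the disc genes. Cdhr1 joined the genes, in an unfiltered gene fit that called 737 of 33087 genes. Prph2 had an unadjusted p of 1.6e-35 in that gene fit, against 1.6e-06 in the main fit (edgeR). The sum of coding models with both ends, with all transcripts summed and coding transcripts summed, was added after seeing the data. Values that turned sign were not called in either setting, except Prom1 with both ends (-2.32) and Rpgrip1. Prom1 was -0.010 without a filter, -0.094 with limma-voom, -0.030 with limma-trend at either pseudocount (0.5 or 2, deposited signal), -1.08 over all transcripts and -0.70 over coding transcripts. Rp1 was -0.029 with limma-voom and -0.042 with either limma-trend fit. Rp1l1 was -1.58 over coding transcripts and -1.57 with both ends, and Rpgrip1 -2.50 with both ends. With library totals Fscn2-203 was 0.11 and Rp1-202 was 0.78. The cause of these turns was not tested.

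With 1 library left out, the 9 genes gave 2 lower and 0 higher each time. These fits called from 36 of 13632 genes (without control replicate 3) to 110 of 14888 (without Jun_KD replicate 2). Over those fits Prom1 ranged from -0.056 to 0.38, Rp1 from -0.083 to 0.42, Rp1-201 from -0.047 to 0.44 and Rp1-202 from -0.40 to 0.43. The difference between groups (Jun_KD minus control) in the log2 ratio of Rom1 to Prph2 ranged from -0.60 to 0.12. The same difference in the retained-intron share of Prom1 ranged from -0.345 to 4.29 percentage points. For Rp1 it ranged from -0.127 to 0.361 for the retained-intron share and from -0.361 to 0.127 for the both-ends share. Same-numbered libraries did not deviate together over all tested genes (r = 0.000482, 0.00599 and -0.0157), and not every library correlated best with its own number. With 3 libraries per group this cannot exclude a pairing, and the labels state none. With the replicate block 97 genes were called in place of 214, and the 9 genes again gave 2 lower (Prph2 -4.25, Rom1 -4.40) and 0 higher. In the both-ends fit the block added Rp1 (0.84, adjusted p = 0.0493, edgeR). Scaling moved the median gene from -0.12 with TMM to 0.029 with median of ratios, 0.27 with upper quartile and 0.38 with library totals, and no gene of the 9 changed sign or call among these. In Jun_KD replicate 1 the values of Pcare and Fscn2 rest on 3 and 7 counts, at a library total near those of the other Jun_KD libraries (13211300 against 13325500 and 13998400).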
